A study of Mus musculus with 20 samples.

Results

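Glutathione S-transferases and UDP-glucuronosyltransferases are the liver enzymes that make foreign and endogenous molecules water soluble by joining glutathione or a sugar to them. The array measured 32 genes of these families among 18193 genes with a probe set of their own: 22 glutathione S-transferase genes and 10 UDP-glucuronosyltransferase genes. They are the genes named alone by a probe set whose symbol starts with Gsta, Gstm, Gstp, Gstt, Gstk, Gsto, Mgst, Ugt1a, Ugt2a, Ugt2b or Ugt3a, each read from its brightest probe set. No pseudogene matched, and no Ugt1a gene had a probe set to itself.

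Livers came from Scd1+/+ mice, called wild type here, and Scd1-/- mice, called knockout, which lack stearoyl-CoA desaturase 1, the enzyme that makes monounsaturated fatty acids. Each genotype was given chow or a very-low-fat diet, here VLF (code TD03045, Harlan Teklad). That gave 4 groups of 5 livers and 20 arrays, 1 per liver. The series design asks for changes found in the knockout on the VLF diet. Age, sex, strain, diet length and the tissues that carry the deletion are not stated in the sources used here.

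Glutathione S-transferases attach glutathione to reactive electrophiles such as lipid aldehydes and activated drugs. The soluble classes are named alpha, mu, pi, theta, kappa and omega, and the microsomal Mgst enzymes sit in membranes. UDP-glucuronosyltransferases of the endoplasmic reticulum transfer glucuronic acid to steroids, bile acids, bilirubin and drugs. Many genes of both families are known targets of the transcription factors NRF2, AHR, CAR and PXR. NRF2 binds antioxidant response elements and AHR binds xenobiotic response elements.

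Of the 32 genes, 29 had a start-site window in RefSeq for build GRCm38.p6, each of 250 bases upstream and 50 downstream. The core of the antioxidant response element was searched as TGACNNNGC and the core of the xenobiotic response element as GCGTG, on both strands, with TGAGNNNGC added after the first search. TGACNNNGC lay in 12.4% of all 32851 windows, GCGTG in 32.4% and TGAGNNNGC in 17.6%. Counted by gene, TGACNNNGC lay in a window of 14.0% of 27025 genes and of 4 of the 29 transferase genes, Gsta3, Gstm5, Gstm7 and Mgst1. GCGTG lay in a window of 35.2% of genes and of 6 of 29, namely Gsta2, Gstm1, Gstm5, Gstp1, Gstp3 and Mgst3. TGAGNNNGC lay in a window of 19.8% of genes and of 6 of 29: Gstm5, Gstp1, Gstp3, Gstt1, Gstt4 and Ugt2a3. A match is a stretch of letters, not a binding site. The 250 bases upstream of 4 genes are printed 5′ to 3′ because these genes moved in different ways: Gstp1 (chr19:4037913-4038162, minus strand), Gstm5 (chr3:107895604-107895853, plus strand) and Gstm3 (chr3:107969175-107969424, minus strand) rose in the knockout on the VLF diet, and Gsta3 (chr1:21240335-21240584, plus strand) fell. Capitals mark matches to any of the motifs on either strand, which can overlap.
Gstp1: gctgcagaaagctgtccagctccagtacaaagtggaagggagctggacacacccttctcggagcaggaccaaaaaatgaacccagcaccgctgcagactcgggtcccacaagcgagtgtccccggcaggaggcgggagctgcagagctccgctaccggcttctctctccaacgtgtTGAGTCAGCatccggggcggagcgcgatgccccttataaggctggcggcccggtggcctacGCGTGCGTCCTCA
Gstm5: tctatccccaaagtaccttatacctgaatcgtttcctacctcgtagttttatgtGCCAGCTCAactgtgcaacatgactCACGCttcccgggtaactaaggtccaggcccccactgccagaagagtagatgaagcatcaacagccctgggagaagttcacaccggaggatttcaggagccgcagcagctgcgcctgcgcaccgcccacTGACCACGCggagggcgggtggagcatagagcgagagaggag
Gstm3: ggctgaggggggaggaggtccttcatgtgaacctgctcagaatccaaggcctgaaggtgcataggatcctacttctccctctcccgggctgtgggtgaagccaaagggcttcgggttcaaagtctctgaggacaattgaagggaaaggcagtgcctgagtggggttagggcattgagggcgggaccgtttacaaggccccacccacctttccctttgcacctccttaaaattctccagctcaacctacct
Gsta3: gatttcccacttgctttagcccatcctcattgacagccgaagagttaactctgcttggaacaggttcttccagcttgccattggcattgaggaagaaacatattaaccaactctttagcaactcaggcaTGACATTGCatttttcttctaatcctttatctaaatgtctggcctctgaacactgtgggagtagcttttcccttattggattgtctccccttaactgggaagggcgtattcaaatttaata

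Gstp1 holds a TGAGNNNGC match on the printed strand, and a GCGTG match overlaps a TGAGNNNGC match on the other strand next to its start site. Gstm5 carries all the motifs, Gsta3 a single TGACNNNGC match, and Gstm3, the gene with the largest rise, none in this window.

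Scd1 intensity was 27.1 to 57.9 in the 10 knockout livers and 6460 to 20348 in the 10 wild-type livers, so every genotype label matched. Intensities are normalized values on a linear scale, on which deposited array medians ran from 32.2 to 36.5. Of 7 hepatocyte markers 2 fell in the knockout on the VLF diet, Asgr1 (-0.76 in log2) and Hnf4a (-0.31, not called with arrays centred on the hybridization controls). The 7 summed to 88265 to 91811 in knockout VLF livers and 87599 to 92568 in wild-type VLF livers. Most of that sum is Alb, Ttr and Apoa1, which are among the brightest probe sets, and quantile normalization makes these nearly equal on all arrays. Alb read 24366.5 in every VLF liver of both genotypes, so the sum can show little change in hepatocyte content. The 8 macrophage and Kupffer cell markers summed to 13755 to 18286 in knockout VLF livers, against 3978 to 4742 in wild-type VLF livers, 4753 to 6543 in knockout chow livers and 4868 to 5359 in wild-type chow livers. All 8 rose in the knockout on the VLF diet. Over all genes 19.2% rose and 23.0% fell in the same comparison. Of genes with a mean log2 intensity of at least 8, 70.5% changed either way. No marker count in this paragraph was tested against these shares. Of 8 stellate cell markers 6 rose and 1 fell (summed 5089 to 6656 against 2454 to 3117), and of 7 cholangiocyte markers 3 rose (1055 to 1318 against 762 to 874), with Cftr at the floor on all 20 arrays and Krt7 near it. All 6 pericentral hepatocyte markers fell (summed 11192 to 15085 against 23396 to 27973), of 4 periportal markers 1 rose and 2 fell (7106 to 9030 against 12272 to 16098), and of 6 endothelial markers 1 rose and 4 fell (1653 to 2532 against 1867 to 2279). The periportal marker that rose was Ass1, whose mean went from 195 to 323. Its probe set was dimmer than those of the other periportal markers. With arrays centred on the hybridization controls, the falls of 4 endothelial markers (Kdr, Stab2, Clec4g and Tek), of the stellate marker Lrat and of the pericentral markers Cyp1a2 and Axin2 were not called. The actin 3′ to 5′ ratio, a measure of RNA integrity, had a median of 1.85 in knockout VLF livers, 2.23 in wild-type VLF livers, 2.30 in knockout chow livers and 2.61 in wild-type chow livers. The same ratio for Gapdh was 1.25 to 1.35 in knockout VLF livers and 1.23 to 1.41 in wild-type VLF livers, which overlapped, with medians of 1.37 in knockout and 1.53 in wild-type chow livers. The part of these shifts in the results was not tested. In whole liver, fewer cells of a type and less RNA per cell cannot be told apart.

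On the VLF diet the knockout liver had far more Gstm3, Gsta2, Gsta4, Gstp1 and Ugt2b35 message than the wild-type liver, and far less Ugt3a2, Ugt3a1, Ugt2b1 and Gstt1. The change split the families. Of 22 glutathione S-transferase genes 9 rose, 8 fell and 5 were not called, whereas of 10 UDP-glucuronosyltransferase genes 9 fell and 1, Ugt2b35, rose. In all 27 of 32 genes were called, 10 up and 17 down, where a call is a limma Benjamini-Hochberg adjusted p under 0.05 over all probe sets. Of all 18193 genes 42.2% were called in this comparison, 19.2% up and 23.0% down. The transferase genes are brighter than most (median log2 intensity 10.02 against 6.06 for all genes), and among genes with a mean log2 intensity of at least 8, a background added after the data were seen, 70.5% were called, against 25 of 27 transferase genes. The median log2 change of the 32 genes was -0.33, against -0.02 for all genes. In 21 of 32 genes no knockout value fell within the wild-type range and the groups were fully apart, as in 30.1% of all genes. With arrays centred on the hybridization controls instead, 18 transferase genes were called, 11 up and 7 down. That scaling moved the median change of all genes to 0.10, and it turned the sign of no gene called in this comparison.

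**Figure D1:**
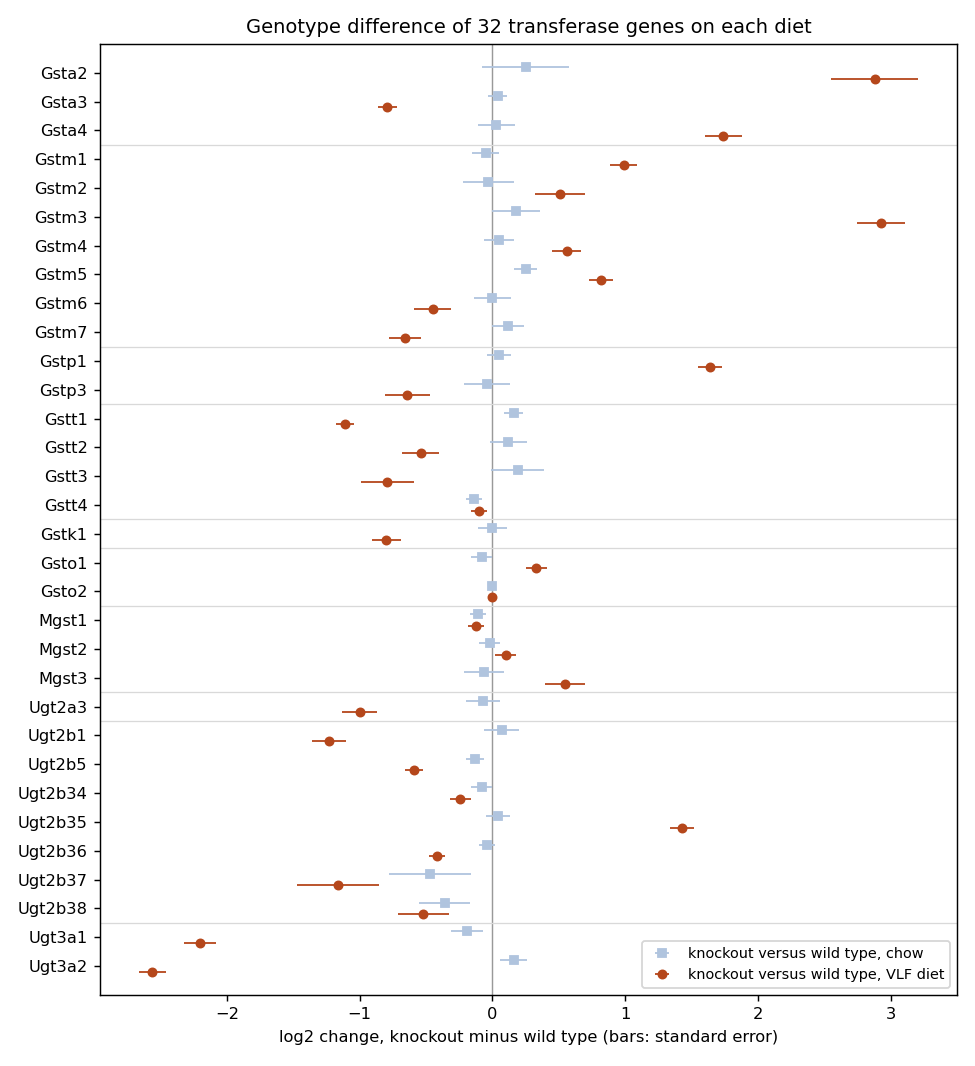
Log2 change of knockout over wild type, on the VLF diet (circles) and on chow (squares), for the 32 transferase genes, with standard errors of the limma fit (n = 5 livers per group), where a value of 1 is a doubling. On chow all squares lie between -0.47 and 0.25, while on the VLF diet the circles run from -2.56 (Ugt3a2) to 2.93 (Gstm3).

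The alpha class makes up much of the liver's soluble glutathione S-transferase. On the VLF diet 2 of its 3 measured genes rose and 1 fell. Gsta2, an inducible alpha enzyme, read 1821, 2901, 2728, 2961 and 2699.6 in the 5 knockout VLF livers and 343, 248, 631, 324 and 308 in the 5 wild-type VLF livers. The groups did not overlap, and knockout VLF liver 1 was the lowest of its group. Gsta2 rose 7.36-fold (2.88 ± 0.33 in log2 ± its standard error, as in all brackets below, with a limma adjusted p = 1.47e-06). On chow it read 1522, 1198, 985, 727 and 1157 in knockout livers and 773, 685, 508, 979 and 2432 in wild-type livers, and these groups overlapped. Wild-type means were 371 ± 149.6 on the VLF diet and 1076 ± 777 on chow (mean ± SD, n = 5, as for all means below).

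Gsta4, which favours 4-hydroxynonenal and other products of lipid peroxidation, read 2211, 2795, 2473, 2393 and 2179 in knockout VLF livers. Wild-type VLF livers read 675, 707, 768, 637 and 830.1, all lower. It rose 3.33-fold (1.74 ± 0.14, adjusted p = 1.2e-08). On chow the values 1095, 1136, 800.3, 762 and 922 in knockout livers overlapped 876, 855, 719.7, 921 and 1283 in wild-type livers.

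Gsta3, known in mouse for conjugating the activated form of aflatoxin B1, went the other way. Its values were 2481, 2555, 2516, 2578 and 2528 in knockout VLF livers and 4358, 4137, 4674, 3942 and 4768 in wild-type VLF livers, without overlap and with very little spread in the knockout. It fell 1.72-fold (-0.79 ± 0.07, adjusted p = 5.65e-08), and its dimmer probe set fell too (-0.88 ± 0.11). On chow knockout livers read 5158, 4955, 4314, 5175 and 5042 and wild-type livers 4732, 4080.1, 4936, 5499.6 and 4846, which overlapped. A probe set shared by Gsta1, Gsta2 and Gm3776, which cannot be assigned to 1 of them, averaged 7567 ± 805 in knockout VLF livers and 260 ± 105 in wild-type VLF livers. That signal rose by 4.94 ± 0.39 in log2 (adjusted p = 1.28e-08).

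The mu class is coded by neighbouring genes on 1 chromosome, and its members did not move as a block. On the VLF diet 4 of 7 rose (Gstm1, Gstm3, Gstm4 and Gstm5), Gstm6 and Gstm7 fell, and Gstm2 was not called. Gstm3 read 9571, 13455, 9613, 10644 and 10106 in knockout VLF livers and 1459.5, 829, 1566, 1642 and 1667 in wild-type VLF livers, with a wide gap between the groups. Its rise of 7.62-fold (2.93 ± 0.18, adjusted p = 4.36e-10) was the largest among the 32 genes. Its dimmer probe set rose by 3.08 ± 0.19. The brighter probe set of Gstm3 is of a design that can also read related transcripts. On chow Gstm3 values of 1610.5, 1482, 2023, 1247 and 1472 in knockout livers overlapped those of 1357, 1279, 1131, 1311 and 1814 in wild-type livers.

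Gstm1, the most abundant mu enzyme of mouse liver, read 13348, 17138, 12560.0, 12560.0 and 14273 in knockout VLF livers. All of these were above the wild-type VLF values of 7448, 5381, 6898, 8242 and 7336. Gstm1 rose 1.99-fold (0.99 ± 0.10, adjusted p = 1.9e-07), and its other 3 probe sets rose by 0.60 to 0.96. Chow values overlapped, with 7292, 7775, 6528, 6740.4 and 6718 in knockout and 7193, 7336, 7193, 7448 and 7017 in wild-type livers. Gstm5 rose from 278 ± 39.1 to 486 ± 27.0 (0.82 ± 0.09) and Gstm4 from 501 ± 75.4 to 738 ± 131 (0.56 ± 0.11), both without overlap.

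Gstm2, another mu enzyme, read 1168, 2122, 791, 1086 and 1360.3 in knockout VLF livers and 975, 615, 949, 1097 and 781 in wild-type VLF livers, and the groups overlapped. The genotype change of 0.51 ± 0.19 (adjusted p = 0.0501) was not called, but dropping knockout VLF array 3, or array 4 of wild-type VLF, made it a call (adjusted p over the 10 leave-outs 0.0072 to 0.145), as did 5 of 9 other settings. On chow it read 518, 385, 485, 474 and 513 in knockout livers and 515, 525, 438, 458 and 485 in wild-type livers, below every VLF liver of either genotype.

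Gstm7 fell from 803 ± 88.1 to 508 ± 69.6 (-0.66 ± 0.12, adjusted p = 0.000199) without overlap, and its dimmer probe set by 0.28 ± 0.08 in log2 (adjusted p = 0.0142). Gstm6 fell from 688 ± 122 to 501 ± 74.4 (-0.45 ± 0.14, adjusted p = 0.0147) with overlap. Neither was called with arrays centred on the hybridization controls (-0.28 and -0.07), and Gstm6 was not called after median scaling alone (-0.26). In RefSeq the order along the chromosome is Gstm5, Gstm7, Gstm6, Gstm3, Gstm2, Gstm1 and Gstm4, so the falling pair lies between genes that rose.

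**Figure D2:**
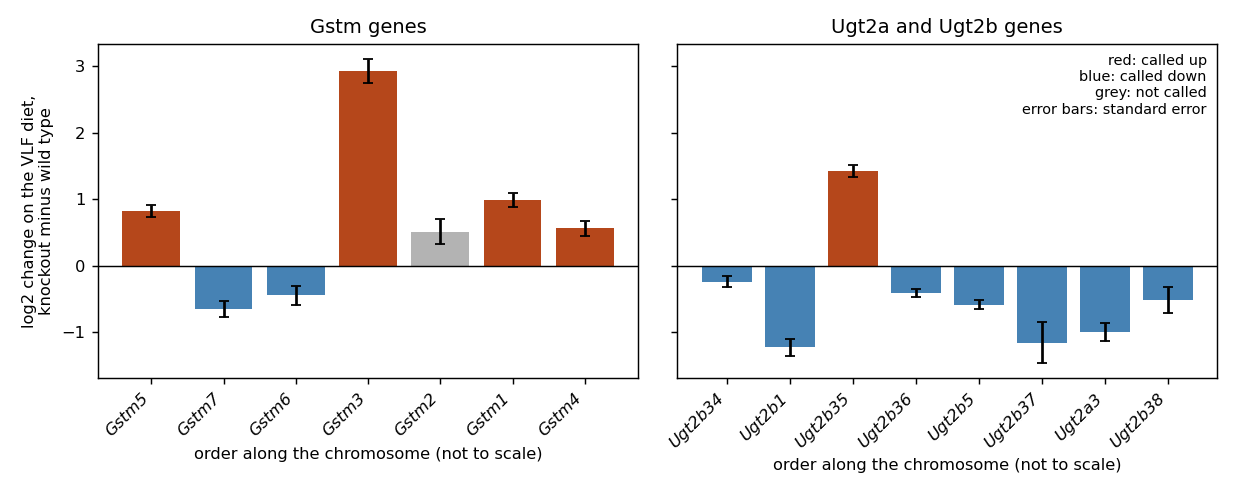
Log2 change of knockout over wild type under the VLF diet for the Gstm genes (left) and the Ugt2a and Ugt2b genes (right), in chromosomal order and not to scale, with standard errors (n = 5 livers per group). Gstm7 and Gstm6 (-0.66 and -0.45) lie between Gstm5 (0.82) and Gstm3 (2.93), and Ugt2b35 (1.43) is the only gene of its cluster above 0. Centred on the hybridization controls, no bar called here changes sign.

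The pi class has a major form, Gstp1, and the less studied Gstp3, and on the VLF diet they moved apart. Gstp1 read 17138, 18376, 16848, 17731 and 18130.4 in knockout VLF livers and 5720.0, 4916, 5213, 6279.5 and 6406 in wild-type VLF livers. Every knockout liver was above every wild-type liver, with a rise of 3.11-fold (1.64 ± 0.09, adjusted p = 1.41e-10). On chow the values 7931, 8366, 9285, 7506 and 7478 in knockout and 6920.2, 9228, 7478, 6898 and 8894 in wild-type livers overlapped. Gstp3 read 284, 379, 226, 315 and 453 in knockout VLF livers and 518, 419, 428, 608 and 573 in wild-type VLF livers, with overlap at the top knockout value. It fell 1.56-fold (-0.64 ± 0.17, adjusted p = 0.00753), a call lost after median scaling alone (-0.44) or centring on the hybridization controls (-0.25). Chow values were lower in both genotypes, 236, 223, 193, 243 and 236 in knockout and 201, 196, 224, 220.4 and 348 in wild-type livers.

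Theta enzymes act on small halogenated compounds, and 3 of the 4 measured theta genes fell on the VLF diet. Gstt1 read 2107, 1988, 1797, 2036 and 1976 in knockout VLF livers and 4341, 4249.6, 4382, 4323 and 4095 in wild-type VLF livers, with no overlap. It fell 2.16-fold (-1.11 ± 0.07, adjusted p = 1.13e-09). Chow livers lay near the wild-type VLF level, at 4003, 4257, 3773, 4570.5 and 4226 in knockout and 4112, 3348, 3618, 4382 and 3259 in wild type. Gstt2 fell from 728 ± 122 to 500.2 ± 75.6 (-0.54 ± 0.14, adjusted p = 0.00643). Gstt3 fell from 589.7 ± 113 to 348 ± 114 (-0.79 ± 0.20, adjusted p = 0.00465), with knockout VLF liver 2 above its group. Centred on the hybridization controls neither was called (-0.16 for Gstt2 and -0.40 for Gstt3). Gstt4 stayed close to the floor of 16 in all groups, at 16 to 22.4, and was not called (-0.10).

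Gstk1, the kappa enzyme of mitochondria and peroxisomes, read 1046, 1280.1, 1068, 1329.7 and 1230.1 in knockout VLF livers and 1818, 2006, 2481, 1898 and 2201 in wild-type VLF livers, without overlap. It fell 1.74-fold (-0.80 ± 0.11, adjusted p = 1.09e-05). Chow values were 2909.5, 3026, 2618, 2581 and 2481 in knockout and 2603, 2355, 2345, 2901 and 3488 in wild-type livers, which overlapped.

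Gsto1, the omega enzyme that reduces dehydroascorbate, read 1843, 2049, 2166, 1974 and 1899.7 in knockout VLF livers and 1582, 1332, 1621, 1690.3 and 1718 in wild-type VLF livers. The groups did not overlap, and the rise was small (0.33 ± 0.08, adjusted p = 0.00425). Its second probe set was not called (0.14, adjusted p = 0.241), so the call depends on the probe set. On chow it read 1723, 2009, 1681, 1729.9 and 2006 in knockout and 1605, 1976, 2003, 1959 and 2119 in wild-type livers. Gsto2 lay at the floor on all 20 arrays.

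Among membrane-bound forms Mgst1, the abundant liver enzyme, was not called. It read 11609, 9832, 10261, 10421 and 10871 in knockout VLF livers and 12027, 10644, 11785, 11853 and 11212 in wild-type VLF livers, with overlap (-0.12 ± 0.06, 95% interval -0.25 to 0.02). Chow values were 11950.0, 12276, 9940.1, 11129 and 11129 in knockout and 12560.0, 13232, 12357, 12197 and 10644 in wild-type livers. Mgst3 rose from 485 ± 64.3 to 723 ± 203 (0.55 ± 0.15, adjusted p = 0.00664), with the lowest knockout value inside the wild-type range. Its dimmer probe set showed no call (-0.05, adjusted p = 0.93), and the mean of both gave 0.25 (adjusted p = 0.0581). Mgst2 was dim, at 33.3 to 48.1 over all livers, and was not called (0.10 ± 0.08).

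**Figure D3:**
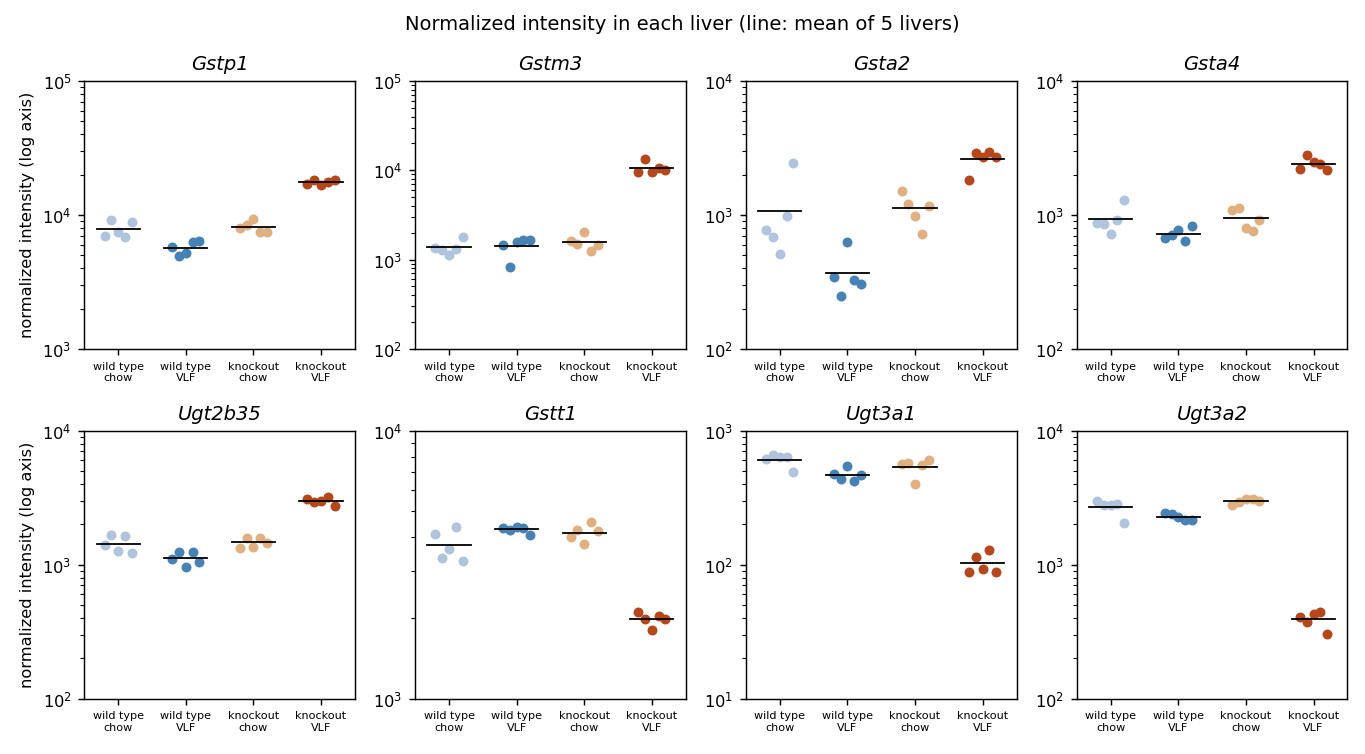
Normalized intensity of 8 transferase genes in each of the 20 livers on log axes, by genotype and diet, with lines at the mean of 5 livers. In each panel the 5 knockout VLF livers lie outside the range of the wild-type VLF livers, for example 16848 to 18376 against 4916 to 6406 for Gstp1 and 303 to 442 against 2149 to 2417 for Ugt3a2.

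UGT3 enzymes differ from the other classes in using sugars other than glucuronic acid, and both measured genes fell sharply on the VLF diet. Ugt3a2 read 406, 371, 426, 442 and 303 in knockout VLF livers and 2417, 2371, 2279, 2148 and 2166 in wild-type VLF livers. The lowest wild-type value was far above the highest knockout value, and the gene fell 5.89-fold (-2.56 ± 0.10, adjusted p = 1.37e-12). On chow the knockout read 2800.5, 2934, 3113, 3101 and 3013 and the wild type 3013, 2795, 2781, 2850.2 and 2057, which overlapped. Ugt3a1 read 87.6, 114, 92.9, 128 and 88.9 in knockout VLF livers and 476, 434, 543, 418 and 468 in wild-type VLF livers, again without overlap. It fell 4.61-fold (-2.20 ± 0.12, adjusted p = 1.82e-10), and its second probe set fell by 3.17 ± 0.11 in log2. Chow values were 564, 572, 397, 558 and 602 in knockout and 614, 664, 642, 637 and 491 in wild-type livers, which overlapped.

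Ugt2 enzymes glucuronidate steroids, bile acids and drugs. Of 8 measured Ugt2a and Ugt2b genes 7 fell on the VLF diet and Ugt2b35 rose. Ugt2b1 read 704, 1137, 988, 1291 and 1080.1 in knockout VLF livers and 2272, 2496, 2684, 2218 and 2312 in wild-type VLF livers. The groups did not overlap, and it fell 2.34-fold (-1.23 ± 0.13, adjusted p = 4.86e-07). Chow values were 3393, 3369, 2622, 3515 and 3611 in knockout and 3177, 2992, 2720.0, 3724 and 3095 in wild-type livers.

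Ugt2a3 read 811, 953, 1150.1, 1130.1 and 810.5 in knockout VLF livers and 1708, 1947, 1880.2, 1844 and 2224 in wild-type VLF livers, again without overlap. It fell 1.99-fold (-1.0 ± 0.13, adjusted p = 6.65e-06). On chow it read 2328, 2302, 1579, 2397 and 2569 in knockout and 2205, 2036, 2154, 2699.6 and 2512 in wild-type livers. A probe set shared by Ugt2a1 and Ugt2a2 lay at the floor on 18 of 20 arrays.

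Ugt2b35 read 3101, 2928, 2995, 3219 and 2754 in knockout VLF livers and 1099, 1239.5, 966, 1234 and 1052 in wild-type VLF livers. Every knockout value was higher, with a rise of 2.69-fold (1.43 ± 0.09, adjusted p = 8.82e-10). On chow knockout livers read 1325, 1592, 1360.3, 1589 and 1459.5 and wild-type livers 1408, 1663, 1260.0, 1630.2 and 1219, with overlap. In RefSeq its neighbours are Ugt2b1 and Ugt2b36, both of which fell.

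Ugt2b36 and Ugt2b5 are further steroid and drug transferases of the cluster. Ugt2b36 read 4159.9, 4438, 3643, 4119 and 4074 in knockout VLF livers and 5704, 4879, 5733, 5381 and 5589 in wild-type VLF livers, without overlap. It fell 1.34-fold (-0.42 ± 0.06, adjusted p = 2.78e-05). On chow it read 6031, 6718, 5470.2, 5829 and 6296 in knockout and 6066, 6740.4, 5923, 6315 and 6121 in wild-type livers, which overlapped. Ugt2b5 fell from 5569 ± 466 to 3689 ± 316 (-0.59 ± 0.07, adjusted p = 2.46e-06), also without overlap. Centred on the hybridization controls, the falls of Ugt2b5 (-0.33), Ugt2b36 (-0.16), Ugt2b37 (-0.93), Ugt2b38 (-0.34) and Ugt2b34 (-0.03) were not called, so that 4 of the 10 UDP-glucuronosyltransferase genes, Ugt2a3, Ugt2b1, Ugt3a1 and Ugt3a2, still fell.

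The remaining Ugt2b falls were dim or small. Ugt2b37 read 53.7, 29.4, 43.4, 40.8 and 33.5 in knockout VLF livers and 92.0, 134, 53.6, 117 and 67.3 in wild-type VLF livers, with overlap (-1.16 ± 0.31, adjusted p = 0.00608). On chow its values were 58.6, 67.1, 69.7, 75.8 and 95.2 in knockout and 87.0, 139, 165, 113 and 44.0 in wild-type livers. Ugt2b38 fell from 39.5 ± 8.46 to 27.2 ± 1.82 (-0.52 ± 0.19, adjusted p = 0.0385), a call that ended in 8 of 10 leave-outs, each knockout VLF array and arrays 2, 3 and 4 of the wild-type VLF livers (adjusted p at most 0.116). It was also not called with a floor of 32 (-0.28, adjusted p = 0.36) or with log2 of the value plus 16 (-0.35, adjusted p = 0.0665). Ugt2b34 fell by 0.24 ± 0.08 in log2 (adjusted p = 0.024), and lost its call when 1 of 4 arrays was dropped, knockout VLF 3 or 5 and wild-type VLF 1 or 2 (up to 0.0651). Its second probe set fell by 0.40 ± 0.10 in log2 (adjusted p = 0.00304).

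Ugt1a genes, which include the bilirubin transferase Ugt1a1, share their last exons, and 3 probe sets name 8 of them together. All 3 fell in the knockout on the VLF diet, by 0.58 ± 0.08, 0.64 ± 0.05 and 0.75 ± 0.09 in log2 (adjusted p = 1.88e-05, 1.93e-08 and 1.49e-06). The second of these averaged 4886 ± 225 in knockout VLF livers and 7588 ± 189 in wild-type VLF livers. Which Ugt1a transcripts changed cannot be read from these probe sets. Values of shared probe sets under the other settings are not given here. Whether these falls hold with arrays centred on the hybridization controls, where those of Ugt2b5 and Ugt2b36 were not called, is therefore not shown.

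On chow the same genotype comparison gave no call among the 32 genes, where 2.92% of all genes were called (1.23% up and 1.7% down) and, of those with a mean log2 intensity of at least 8, 2.82%. By limma 3 genes had an unadjusted p under 0.05, and the smallest adjusted p was 0.109, for Gstm5 (0.25 ± 0.09). Gstt1 (0.16 ± 0.07) and Gstt4 (-0.14 ± 0.06) were the others. Changes ran from -0.47 (Ugt2b37) to 0.25 (Gsta2 and Gstm5), and no gene had groups without overlap, a pattern in 6.12% of all genes. The 95% intervals reached from -1.11 (Ugt2b37) to 0.94 (Gsta2). For Gstm3, Gstp1 and Ugt3a2, the intervals on chow were -0.19 to 0.56, -0.14 to 0.24 and -0.05 to 0.37. After median scaling without quantile normalization 2 genes were called, Gstm5 (0.50) and Gstt1 (0.25).

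The test of whether the genotype change differed between diets called 22 of 32 genes, 10 up and 12 down, beside 24.2% of all genes (12.1% up and 12.1% down) and 53.4% of those with a mean log2 intensity of at least 8. The largest differences were those of Gstm3 (2.74 ± 0.25, adjusted p = 3.03e-07), Ugt3a2 (-2.72 ± 0.14, adjusted p = 2.66e-10), Gsta2 (2.63 ± 0.47), Ugt3a1 (-2.02 ± 0.18), Gsta4 (1.71 ± 0.19) and Gstp1 (1.59 ± 0.13). Centred on the hybridization controls 16 genes were called, 11 up and 5 down, with the median of all genes at 0.29. After median scaling without quantile normalization 18 were called, 6 up and 12 down, with Gstm4 (0.44, adjusted p = 0.0879), Gstm5 (0.52, adjusted p = 0.088), Gsto1 (0.26, adjusted p = 0.248) and Mgst3 (0.53, adjusted p = 0.08) not called. The second probe set of Gsto1 was not called either (0.24, adjusted p = 0.247), nor were those of Gstm7 (0.00, adjusted p = 1.0) and Mgst3 (0.24, adjusted p = 0.352). With the hybridization controls the difference of Ugt2b36 was 0.0036, against -0.38, and not called. The Gstm4 call ended in 10 of 20 leave-outs (knockout VLF array 2 or 5, knockout chow 1, 3 or 5, wild-type VLF 2 or 3, wild-type chow 1, 4 or 5, with adjusted p up to 0.066). The Gstt2 call ended in 6 (knockout VLF array 3, knockout chow 1 or 2, wild-type VLF 3, wild-type chow 2 or 5, up to 0.0542). The Mgst3 call ended in 14, all but knockout VLF array 1, 3 or 4, knockout chow 4, wild-type VLF 4 and wild-type chow 2 (up to 0.0928).

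In wild-type livers the VLF diet by itself gave few calls among these genes, although 19 of 32 had an unadjusted limma p under 0.05. The share of all genes under that cut was not counted. Gstp3 rose 2.17-fold (1.12 ± 0.17, adjusted p = 0.00351) and Gstm2 1.79-fold (0.84 ± 0.19, adjusted p = 0.0433), while Gstp1 fell 1.38-fold (-0.46 ± 0.09, adjusted p = 0.0167). These 3 of 32 genes compare with 1.58% of all genes (0.797% up and 0.781% down) and 4.78% of those with a mean log2 intensity of at least 8. In each of the 3 the VLF and chow livers did not overlap, which was so for 5 of the 32 genes and 4.26% of all genes. The Gstm2 call ended in 9 of 10 leave-outs, all but that of array 2 of the wild-type VLF livers (adjusted p at most 0.137). Gsta2 had the largest difference (-1.38 ± 0.33), just short of a call (adjusted p = 0.0522). It was called without wild-type VLF array 3 or wild-type chow array 3 (adjusted p over the leave-outs 0.0296 to 0.135). The Gstp1 call was lost when only these groups were fitted (adjusted p = 0.0947) and with arrays centred on the hybridization controls (adjusted p = 0.124).

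In knockout livers the diet moved most of them. Between chow and the VLF diet 25 of 32 genes were called, 11 up and 14 down, beside 34.8% of all genes (17.0% up and 17.7% down) and 67.3% of those with a mean log2 intensity of at least 8. In 23 genes the groups did not overlap, against 25.2% of all genes. The largest rises were Gstm3 (2.78 ± 0.18), Gstm2 (1.39 ± 0.19), Gsta4 (1.37 ± 0.14), Gsta2 (1.25 ± 0.33), Gstp1 (1.12 ± 0.09) and Ugt2b35 (1.04 ± 0.09). The largest falls were Ugt3a2 (-2.95 ± 0.10), Ugt3a1 (-2.40 ± 0.12), Ugt2b1 (-1.69 ± 0.13), Ugt2a3 (-1.20 ± 0.13), Gstk1 (-1.20 ± 0.11) and Gstt1 (-1.07 ± 0.07). Centred on the hybridization controls 21 were called, 13 up and 8 down, with the median of all genes at 0.27. The Gstp3 call (0.51) ended in 7 of 10 leave-outs, all but knockout VLF array 1 or 3 and knockout chow array 4 (adjusted p up to 0.11). The Gstt3 call (-0.56) ended in 8, all but knockout VLF array 2 and knockout chow array 3 (up to 0.109), and the Ugt2b37 call (-0.88) in 8, all but knockout VLF array 1 and knockout chow array 1 (up to 0.0981).

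Gstp1 fell with the diet in wild type and rose in knockout. Gsta2 had a change of -1.38 in wild type, not called, and rose by 1.25 in knockout. Gstm2 and Gstp3 had higher values on the VLF diet in both genotypes, and their interaction was not called (0.55 ± 0.28 and -0.60 ± 0.25). That of Gstp3 was called by limma with the replicate number as a block (adjusted p = 0.0382). It was also called among probe sets of mean log2 of at least 6 (adjusted p = 0.0463). Leaving out knockout VLF array 5 or wild-type chow array 5 made it a call too (adjusted p over the 20 leave-outs 0.0222 to 0.209). The genotype comparison on the VLF diet, the diet comparison in the knockout and the interaction all contain the knockout VLF livers, so their calls are not independent. In all 3 of them 9 genes were called up (Gsta2, Gsta4, Gstm1, Gstm3, Gstm4, Gstm5, Gstp1, Mgst3 and Ugt2b35) and 12 were called down (Gsta3, Gstm7, Gstt1, Gstt2, Gstt3, Gstk1, Ugt2a3, Ugt2b1, Ugt2b5, Ugt2b36, Ugt3a1 and Ugt3a2). Gstt4, Gsto2, Mgst1 and Mgst2 were called in none of these 3.

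**Figure D4:**
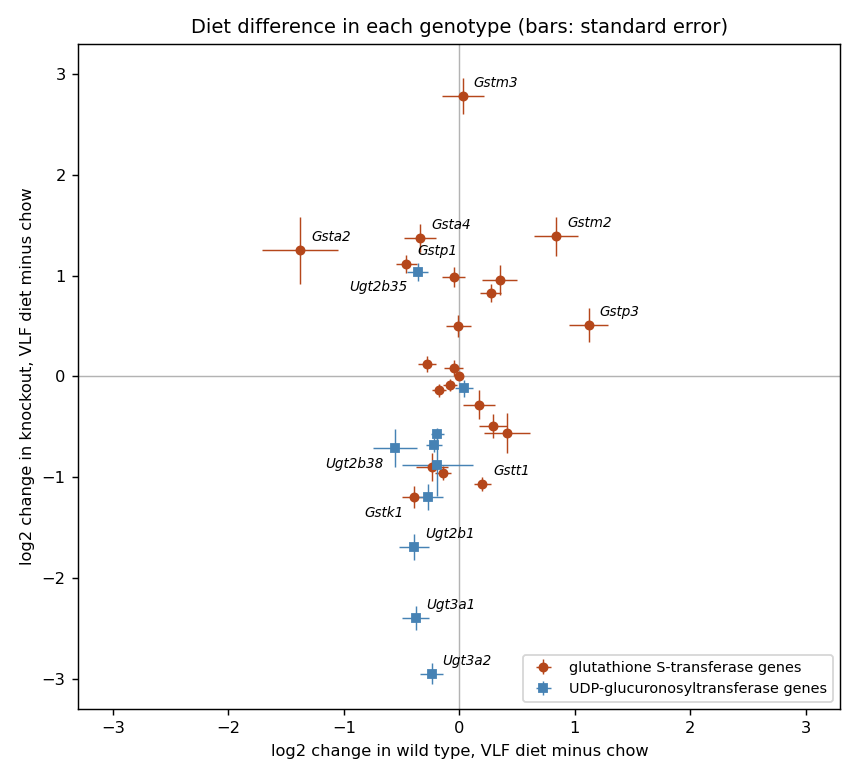
Log2 change from chow to the VLF diet in wild-type livers (horizontal) and knockout livers (vertical) for the 32 transferase genes, with standard errors (n = 5 livers per group). Gstm3 lies at 0.03 and 2.78 and Ugt3a2 at -0.24 and -2.95, far from 0 only in the vertical direction, whereas Gstp3 (1.12 and 0.51) and Gstm2 (0.84 and 1.39) lie above 0 in both.

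Of 11 measured genes of glutathione synthesis, use and recycling 6 rose in the knockout on the VLF diet, 1 fell and 4 were not called, beside 19.2% up and 23.0% down over all genes. Gsr, which regenerates glutathione from its oxidized form, rose from 334 ± 12.7 to 997 ± 51.5 (1.58 ± 0.05). Gpx4, the lipid hydroperoxidase (1.06 ± 0.07), Gss, glutathione synthetase (1.54 ± 0.15), and Gclc, the catalytic subunit of the rate-limiting ligase (1.80 ± 0.18), rose too. So did Slc7a11, which imports cystine (1.93 ± 0.23), and Chac1, which breaks glutathione down (1.02 ± 0.25). The ligase's modifier subunit Gclm had a change of 0.06 ± 0.11 and was not called, and Oplah, the oxoprolinase of glutathione breakdown, fell (-0.60 ± 0.07) but was not called on the hybridization controls (-0.21).

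Genes for the supply of UDP-glucuronic acid were listed together with Gusb, which releases glucuronic acid from conjugates. Of these 7 genes 4 rose and 1 fell, beside 19.2% up and 23.0% down over all genes. The 2 not called were Hk1 (0.13 ± 0.07) and Ugp2 (0.17 ± 0.10). Ugdh, which makes UDP-glucuronic acid from UDP-glucose, rose from 588 ± 114 to 2489 ± 256 (2.10 ± 0.14). Pgm2 (1.30 ± 0.13), Slc35d1, the carrier of the sugar nucleotide into the endoplasmic reticulum (0.82 ± 0.10), and Gusb, the lysosomal glucuronidase (1.22 ± 0.12), rose as well. Pgm1 fell by 0.23 ± 0.05 in log2, but its change was 0.12 and not called with arrays centred on the hybridization controls.

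All 6 genes for transporters that export conjugates rose in the knockout on the VLF diet, where 19.2% of all genes rose. Abcc4 rose from 47.9 ± 5.86 to 437 ± 80.4 (3.18 ± 0.15), Abcc2, the canalicular export pump, from 361 ± 26.6 to 952 ± 95.6 (1.39 ± 0.07), Abcc1 by 1.30 ± 0.09 and Abcb1a by 1.78 ± 0.20. Abcc3 (1.12 ± 0.12) and Abcg2 (0.56 ± 0.16) rose too. Between chow and the VLF diet in the knockout neither was called (0.24 ± 0.12 and 0.22 ± 0.16). In wild type Abcc3 fell with the diet from 835 ± 68.9 to 471 ± 72.4. Abcc4 was also called on chow (0.58, adjusted p = 0.048), a call that ended in 9 of 10 leave-outs, all but that of wild-type chow array 5 (adjusted p up to 0.137). The other chow call in these lists was the thiopurine methyltransferase Tpmt (0.61, adjusted p = 0.029), which ended without knockout chow array 3 or 4 or wild-type chow array 1 (adjusted p up to 0.0836). Neither chow call held with arrays centred on the hybridization controls (adjusted p = 0.189 for Abcc4 and 0.186 for Tpmt).

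Of 12 genes for NRF2 regulators and its other known targets 10 rose and none fell, beside 19.2% up and 23.0% down over all genes. Nfe2l2, which encodes NRF2, and its inhibitor Keap1 were not called (-0.28 ± 0.18 and 0.15 ± 0.08). The carbonyl reductase Cbr3 rose from 29.1 ± 1.76 to 1258 ± 384 (5.38 ± 0.16), sulfiredoxin Srxn1 from 119.8 ± 24.7 to 2243 ± 596 (4.20 ± 0.18), thioredoxin reductase Txnrd1 by 1.42 ± 0.10 and heme oxygenase Hmox1 by 2.09 ± 0.15. The call of Mafg (0.21) was lost on dropping knockout VLF arrays 3, 4 or 5, or arrays 1 or 4 of wild-type VLF (up to 0.108).

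Of 8 genes for AHR regulators and targets 3 rose, 2 fell and 3 were not called. Over all genes 19.2% rose and 23.0% fell, and 70.5% of those with a mean log2 intensity of at least 8 were called. Of the listed genes not called, Ahrr and Aldh3a1 lay at the floor on all 20 arrays. Tiparp rose (1.08 ± 0.13), and the dim genes Cyp1a1 (0.41 ± 0.09) and Cyp1b1 (0.34 ± 0.09) rose slightly. Cyp1a2, the main AHR-responsive cytochrome of liver, fell from 2684 ± 512 to 1803 ± 626 (-0.62 ± 0.18), with no call when centred on the hybridization controls (-0.39). The fall of Arnt (-0.19) ended in 8 of 10 leave-outs, each except knockout VLF 2 and, of wild-type VLF, array 4 (adjusted p at most 0.117), and its change was 0.18 on the hybridization controls.

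Of 7 genes for CAR and PXR and their targets 1 rose, 3 fell and 3 were not called. The shares over all genes, for this list and the next, were 19.2% up and 23.0% down. Among genes with a mean log2 intensity of at least 8, 70.5% were called. Nr1i3, which encodes CAR, fell from 565 ± 52.8 to 193 ± 24.7 (-1.55 ± 0.14), its partner Rxra fell (-0.78 ± 0.09), and the target Cyp2c29 fell from 6439 ± 179.7 to 2378 ± 428 (-1.46 ± 0.10). Cyp2b10, the best known CAR target, rose (1.67 ± 0.34) from a low wild-type VLF level of 129.8 ± 33.9 to 430 ± 168. That knockout VLF mean was below the chow means, 758 ± 204 in knockout and 528 ± 298 in wild type. The diet change of Cyp2b10 in the knockout was -0.87 ± 0.34 and not called. Of 9 other conjugating enzymes 6 fell, 1 rose and 2 were not called, led by the glycine transferase Glyat (-1.29 ± 0.10) and the acetyltransferase Nat2 (-0.85 ± 0.08). The single rise was Tpmt (0.84 ± 0.12), and Baat, which conjugates bile acids, fell (-0.69 ± 0.11). Centred on the hybridization controls 2 of the 6 falls were called, Glyat and Nat2, and Baat (-0.30), Nat1 (-0.34), Nat8 (0.05) and Sult1a1 (-0.06) were not. The falls of Nat8 (-0.21) and Sult1a1 (-0.30) were also lost on leaving out arrays. Nat8 was not called in 8 of 10 leave-outs, all but knockout VLF array 3 or 4 (adjusted p up to 0.115), and Sult1a1 was lost on dropping knockout VLF arrays 1, 4 or 5, or arrays 3 or 5 of wild-type VLF (up to 0.0903).

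**Figure D5:**
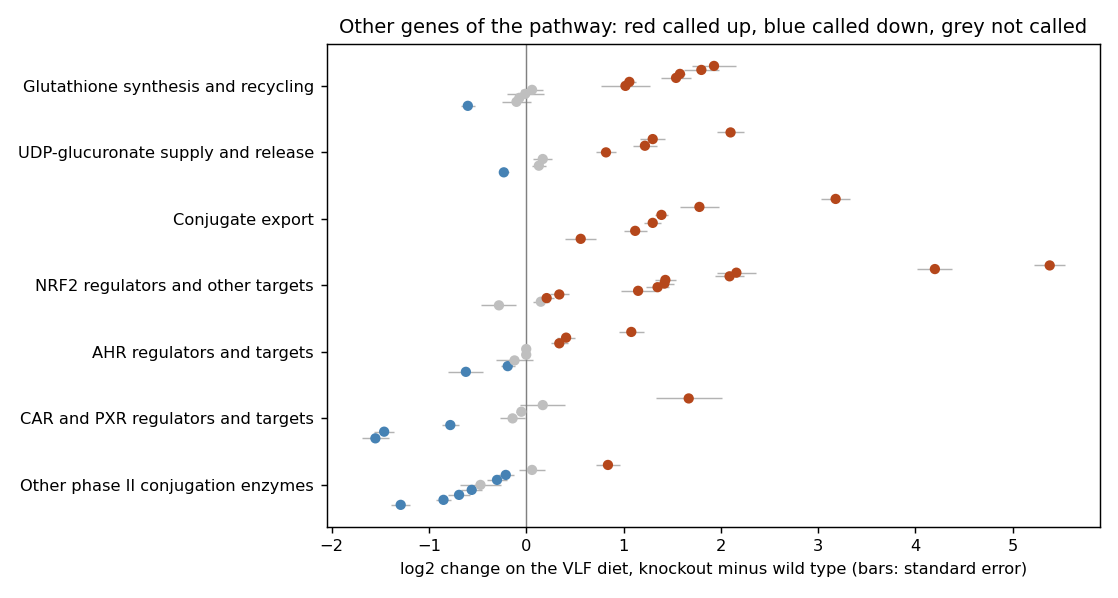
Log2 change of knockout over wild type under the VLF diet for 60 other genes of the pathway in 7 lists, with standard errors (n = 5 livers per group). All 6 export genes lie above 0, from 0.56 (Abcg2) to 3.18 (Abcc4), and the 10 called NRF2 genes run from 0.21 (Mafg) to 5.38 (Cbr3). Pgm1 (blue, -0.23), Arnt (blue, -0.19) and Nat8 (blue, -0.21) have values of 0.12, 0.18 and 0.05 when arrays are centred on the hybridization controls.

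By motif, the 9 transferase genes that rose on the VLF diet and had a window held TGACNNNGC in 1 (Gstm5) and GCGTG in 5 (Gsta2, Gstm1, Gstm5, Gstp1 and Mgst3). The 15 that fell held TGACNNNGC in 2 (Gsta3 and Gstm7) and GCGTG in 1 (Gstp3), and TGAGNNNGC lay in 2 that rose (Gstm5 and Gstp1) and 3 that fell (Gstp3, Gstt1 and Ugt2a3). Over all genes with a window TGACNNNGC lay in 14.0%, GCGTG in 35.2% and TGAGNNNGC in 19.8%. GCGTG lay in 6 of the 29 transferase genes with a window. All of these are counts of letters in 300 bases around start sites, with no test.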

How the data were processed

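Affymetrix 430 2.0 arrays measured RNA of 20 livers. The authors deposited intensity values on a linear scale; per the submitters' processing notes both MAS5 and RMA were used, and the sources used here do not state which gave these values. Of 45101 probe sets 64 controls were removed. Values were scaled to each array's median, floored at 16, put on log2 and quantile normalized, and 45037 probe sets were fitted with limma 3.58.1 in R 4.3.3 over all 4 groups (16 residual degrees of freedom). p-values were Benjamini-Hochberg adjusted over all probe sets, 9117 of which lay at the floor on every array. The script was tested on simulated data. Intervals of a change are 95% intervals of the fit. Replicates are taken as separate livers per the series design, while the labels give only a replicate number. The number of arrays limits the precision.

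The member genes and lists were chosen with earlier results of these data known. Values per array are given for genes called with a log2 change of at least 1 in size and for the brightest gene of each family, and up to 4 genes of each other list with the smallest adjusted p are named. Further list genes were named after their values were seen. Probe sets were named from GEO's platform annotation, and sequences are RefSeq's for GRCm38.p6. Alternatives covered scaling, floor, dim probe sets, choice of probe set, groups fitted, a replicate block and leaving out each array.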

Additional observations from a re-analysis of the deposited data

Results flagged for a closer look

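Each gene was looked at in each group of 5 livers, which gave 124 sets of 5 values. In 15 of them 1 array stood apart from the other 4 by Dixon's test at the 95% level. Chance gives about 1 in 20 for independent sets, but these sets come from the same 20 arrays and are not independent. Knockout chow array 3 was low for 5 genes: Gsta3 (4314 against 4955 to 5175), Gstm6 (458.5 against 626 to 655), Ugt2a3 (1579 against 2302 to 2569), Ugt2b1 (2622 against 3369 to 3611) and Ugt3a1 (397 against 558 to 603). Wild-type VLF array 2 was low for Gstm3 (828.7 against 1459.5 to 1667) and Gstm7 (649.9 against 807 to 856) and high for Ugt2b38 (54.2 against 32.6 to 37.7). Wild-type chow array 5 was low for Ugt3a1 (491 against 614 to 664) and Ugt3a2 (2057 against 2781 to 3013) and high for Gstp3 (348 against 195.9 to 224). The others were Gsta2 in knockout VLF array 1 (1821 against 2699.6 to 2961), Gstt3 in knockout VLF array 2 (551 against 280.3 to 323), Gsto1 in wild-type chow array 1 (1605 against 1959 to 2119) and Ugt2b38 in wild-type chow array 2 (107 against 44.4 to 51.4).

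The genotype change differed between the diets for 22 genes by limma's interaction term. The change on the VLF diet minus that on chow was positive for Gsta2 (2.63), Gsta4 (1.71), Gstm1 (1.04), Gstm3 (2.74), Gstm4 (0.51), Gstm5 (0.57), Gstp1 (1.59), Gsto1 (0.40), Mgst3 (0.60) and Ugt2b35 (1.39). It was negative for Gsta3 (-0.82), Gstm7 (-0.78), Gstt1 (-1.27), Gstt2 (-0.66), Gstt3 (-0.98), Gstk1 (-0.81), Ugt2a3 (-0.93), Ugt2b1 (-1.30), Ugt2b5 (-0.46), Ugt2b36 (-0.38), Ugt3a1 (-2.02) and Ugt3a2 (-2.72). Of these, Gstm4, Gstm5, Gsto1 and Mgst3 were not called after median scaling without quantile normalization, and Gstm7, Gstt2, Gstt3, Gstk1, Ugt2a3, Ugt2b5 and Ugt2b36 were not called on the hybridization controls.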

How the results depend on the processing

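Leaving out 1 array at a time gave 25 to 27 called genes for genotype on the VLF diet, 0 on chow, 2 to 3 for diet in wild type, 22 to 24 for diet in knockout and 19 to 22 for the interaction. Median scaling without quantile normalization gave 2 calls for genotype on chow. For diet in wild type, centring on the hybridization controls gave 1 call, probe sets of mean log2 of at least 6 gave 6, and the mean of each gene's probe sets gave 6. The interaction of Ugt2b36 was 0.0036 when centred on the hybridization controls, against -0.38; the cause was not tested. Across genes and settings, the call held in 565 of 600 values for genotype on the VLF diet, 598 of 600 on chow, 575 of 600 and 559 of 600 for diet in wild type and knockout, and 836 of 888 for the interaction. With the replicate number as a block 27, 0, 3, 23 and 21 genes were called. Arrays of the same number had correlated deviations of -0.262 to 0.273, and 3 of 20 correlated best with their own number. That gave no sign of pairing, but a small effect shared by arrays of 1 number could be missed by this check. Dim genes near the floor have little range to fall.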

Other observations

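In wild-type livers the VLF diet lowered some genes of the wider pathway. Between chow and the VLF diet 0.797% of all genes rose and 0.781% fell. Calls either way were 1.58%, and 4.78% among genes with a mean log2 intensity of at least 8. Of 60 listed genes 9 fell and none rose by limma in that comparison. They included the CAR target Cyp2b10 (-1.88 ± 0.34), the AHR target Cyp1a2 (-1.21 ± 0.18), epoxide hydrolase Ephx1 (-0.97 ± 0.11), the exporter Abcc3 (-0.84 ± 0.12), Gss (-0.71 ± 0.15), Aox1 (-0.71 ± 0.10), Ugdh (-0.64 ± 0.14), Baat (-0.54 ± 0.11) and Gpx1 (-0.28 ± 0.04). With arrays centred on the hybridization controls Gss, Gpx1, Ugdh, Aox1 and Baat were not called. Of 10 leave-outs, Gss lost its call in 3 (wild-type VLF array 1, wild-type chow 1 or 2), Ugdh in 7 (all but wild-type VLF 4 or 5 and wild-type chow 3) and Baat in 7 (all but wild-type VLF 2 or 3 and wild-type chow 4). In knockout livers 27 of the 60 genes rose and 16 fell with the diet, beside 17.0% up and 17.7% down over all genes. On the hybridization controls 8 of those falls were not called: Oplah, Gpx1, Glrx, Pgm1, Ahr, Cyp3a11, Nat1 and Nat8.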
